A study of Mus musculus with 20 samples.

Results

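Matrix metalloproteinases are zinc-dependent enzymes that cut collagens, basement membrane and cell surface proteins. Most are secreted as inactive precursors whose propeptide must be removed, and the tissue inhibitors of metalloproteinases (TIMPs) block the active site of the mature enzyme. In injured airway, epithelial cells, fibroblasts and leukocytes all make them, and they are known for releasing migrating epithelium from its matrix and for remodelling that matrix afterwards. Their levels were followed here in mouse tracheas with and without Myd88, the adaptor protein that carries signals from Toll-like receptors and the interleukin-1 receptor.

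The members were Mmp2, Mmp3, Mmp7, Mmp8, Mmp9, Mmp10, Mmp12, Mmp13, Mmp14 and Timp1, 10 of the 27962 gene names on the array, measured by 14 of its 41174 probes. They were taken by name, as every non-control probe whose gene name was that of a member. A probe entered the tests when it was well above background, by the scanner software's own call, in 10 or more arrays out of 20. Of the 14 member probes 10 did so, for 6 of the 10 genes (Mmp2, Mmp3, Mmp9, Mmp13, Mmp14 and Timp1), as did 26063 probes in all. The 4 single probes of Mmp7, Mmp8, Mmp10 and Mmp12 did not, and they are described without a test.

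RNA came from whole trachea, 1 labelled sample per array, in 4 groups of 5. No label states that each sample was a separate animal, so the p-values measure the spread between samples. Wild-type C57/Bl6 mice and Myd88KO mice, all 4 months old by the labels, were left uninjured or received 2% polidocanol, an epithelium-stripping detergent, and were collected on day 3. Knockout and wild-type mice were bred as separate colonies, so genotype and colony cannot be told apart. Each RNA was hybridised in 1 colour, and the 5 slides each carried 1 array of every group. Slides 2, 3 and 4 were scanned on one day and slides 1 and 5 on another.

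Between 57.5% and 67.8% of spots were well above background on an array, and arrays of a group correlated at 0.925 to 0.990 across probes. The Myd88 probe lay 0.77 lower on the log2 scale in injured Myd88KO than in injured wild-type tracheas (SE 0.14, adjusted p = 0.00824). In uninjured tracheas the difference was −0.21 (SE 0.14, adjusted p = 1). The position of this probe relative to the deletion is not given, so it checks the labels only in part. All 8 listed cartilage genes, all 6 listed club cell genes and all 6 listed ciliated cell genes passed the filter. So did 6 of 6 skeletal muscle, 5 of 6 fat cell and 5 of 6 thyroid genes. Since the samples were whole tissue, fewer cells of a type and less RNA per cell cannot be told apart for any value below.

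Most of the members form one cluster. In the RefSeq annotation of GRCm38.p6 the start sites of Mmp13, Mmp12, Mmp3, Mmp10, Mmp8 and Mmp7 lie in that order on the plus strand of chromosome 9, their promoter windows running from chr9:7272264 to chr9:7692390. Mmp14 is on chromosome 14 and Timp1 on the X chromosome. A promoter window, 250 bases before to 50 after the annotated start, was available for 8 of the 10 members. Mmp2 and Mmp9 had no entry.

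The windows were searched on both strands for 3 motifs known from these genes or from Myd88 signalling. The AP-1 motif TGANTCA, the site of Fos and Jun factors, was in the windows of 5 members (Mmp3, Mmp7, Mmp10, Mmp12 and Mmp13), against 8.97% of the 27025 genes with a window. The TATA box letters TATAAA were in 6 (the same 5 and Mmp8), against 15.7% of genes. The NF-kappaB consensus motif was in 0 of the 8, against 5.14% of genes. A gene with several windows was counted once, as holding a motif where any window did. Mmp14 and Timp1 held no match to any of the motifs. A match is a run of letters only. The last 100 bases before the start are printed 5′ to 3′ for 3 cluster members and for Mmp14 and Timp1, so that the windows with and without the motifs can be set beside the injury values. Capitals mark matches to TGANTCA or TATAAA.
Mmp3, chr9:7445722-7445821, plus strand, GRCm38.p6: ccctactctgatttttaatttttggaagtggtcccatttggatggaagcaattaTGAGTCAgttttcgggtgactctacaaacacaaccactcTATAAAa
Mmp10, chr9:7502242-7502341, plus strand, GRCm38.p6: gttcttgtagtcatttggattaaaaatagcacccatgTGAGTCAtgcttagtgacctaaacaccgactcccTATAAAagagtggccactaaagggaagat
Mmp13, chr9:7272414-7272513, plus strand, GRCm38.p6: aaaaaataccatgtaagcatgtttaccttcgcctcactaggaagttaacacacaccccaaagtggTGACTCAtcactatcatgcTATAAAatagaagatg
Mmp14, chr14:54431498-54431597, plus strand, GRCm38.p6: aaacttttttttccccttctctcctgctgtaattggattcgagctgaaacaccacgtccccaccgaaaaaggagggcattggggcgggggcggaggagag
Timp1, chrX:20870066-20870165, plus strand, GRCm38.p6: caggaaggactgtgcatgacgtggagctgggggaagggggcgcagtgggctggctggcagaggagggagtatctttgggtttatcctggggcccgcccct
The AP-1 letters began 46 bases before the start of Mmp3, 63 before that of Mmp10 and 35 before that of Mmp13. The TATA letters began 7, 29 and 16 bases before the same starts.

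All levels below are log2 signals relative to the 75th percentile of the array, so 0 is the brightness that 75% of spots did not exceed and 1 unit is a doubling. Differences are given on the same log2 scale with the standard error of the limma fit to all 20 arrays. Adjusted p-values are Benjamini-Hochberg values over all 26063 tested probes, and a probe was called at an adjusted p under 0.01.

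Injury of wild-type tracheas raised Timp1, Mmp3, Mmp9 and Mmp14. In that comparison 7 of the 10 tested member probes, from 4 of 6 genes, were called and all 7 were higher, against 3.24% of all tested probes called higher and 5.26% called in either direction. In 8 member probes every injured array lay above every uninjured one, against 7.89% of all tested probes. The median difference of the 10 probes was 2.20, and that of all tested probes was close to 0. Mmp2 and Mmp13 were not called. Within the first scan day 5 member probes were called (3.15% of all) and within the second 7 (2.55%). In Myd88KO tracheas 0 of 10 member probes were called after injury.

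**Figure D1:**
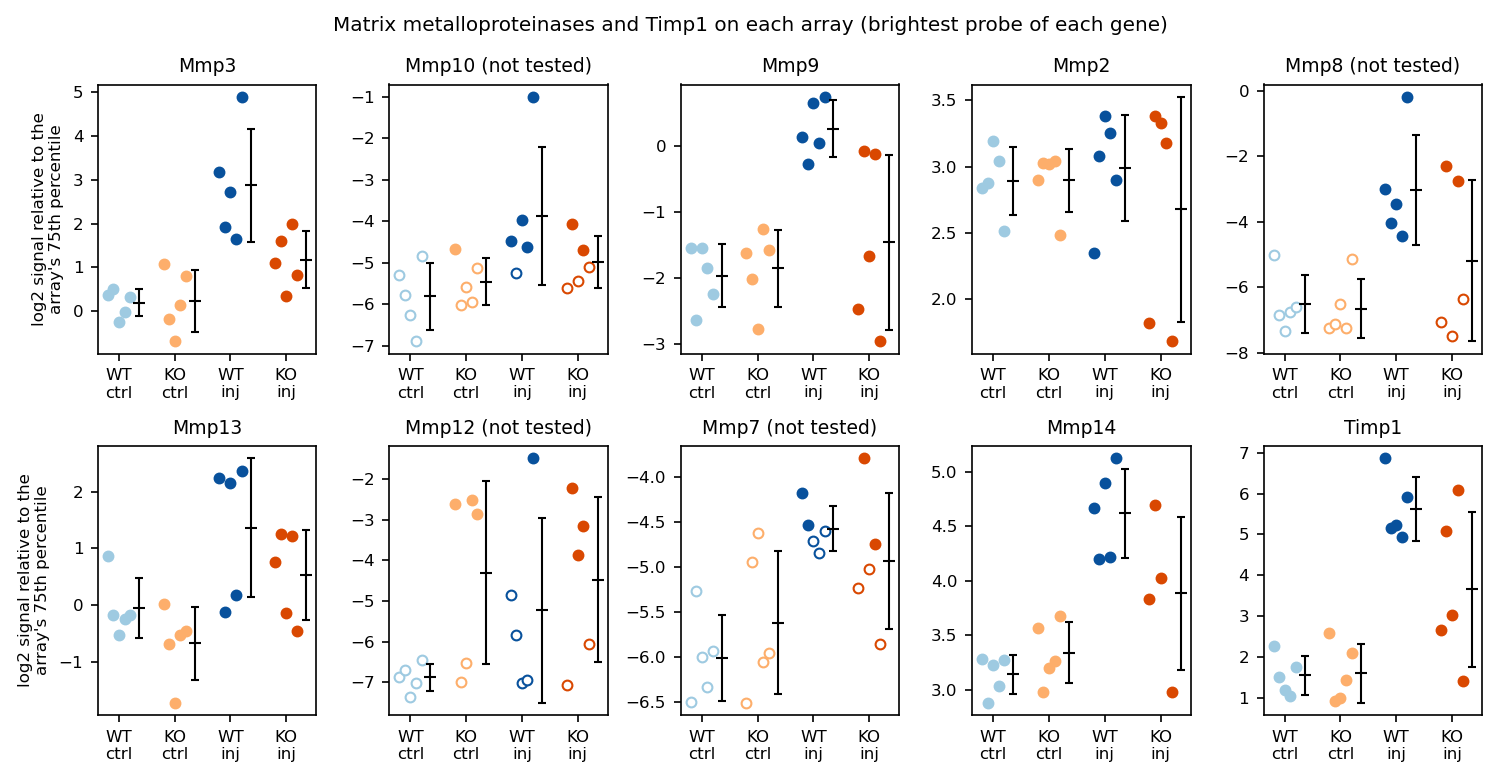
Level of each member on each array, as log2 signal relative to the array's 75th percentile (y axis, a different range in each panel), for the 4 groups of 5 arrays; points run from replicate 1 to 5 within a group, open points were not well above background, and the black mark is the group mean with its SD. The injured wild-type points of Timp1, Mmp3, Mmp9 and Mmp14 all sit above the uninjured ones, while the injured Myd88KO points of Timp1 run from 1.41 to 6.09.

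Timp1 had the largest difference among the tested members. Its product inhibits most secreted metalloproteinases, Mmp9 among them, and also has growth factor-like activity. By its brightest probe the 5 uninjured wild-type arrays gave 2.25, 1.49, 1.18, 1.05 and 1.74, and the 5 injured ones gave 6.87, 5.16, 5.24, 4.94 and 5.92. The groups were far apart, with the lowest injured array well over the highest uninjured one. The difference was 4.08 (SE 0.65, 16.9-fold, adjusted p = 0.000792). Both other Timp1 probes gave the same picture, with differences of 4.28 (SE 0.73, adjusted p = 0.0012) and 4.29 (SE 0.74, adjusted p = 0.00131). Injured exceeded uninjured on 5 of 5 slides, by 3.67 to 4.62 for the brightest probe.

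Mmp3, stromelysin-1, cuts proteoglycans, laminin and fibronectin and can activate other proenzymes such as that of Mmp9. Its uninjured wild-type arrays gave 0.38, 0.51, −0.24, −0.02 and 0.32. After injury the arrays gave 3.19, 1.92, 2.73, 1.64 and 4.90. None of the injured arrays overlapped the uninjured ones, and replicate 5 stood highest. Mmp3 rose by 2.69 (SE 0.48, 6.43-fold, adjusted p = 0.00165). By the methods' one-way test on these groups alone it was not called (adjusted p = 0.0254). Within the slides scanned on the first day the difference was 2.01 (adjusted p = 0.0134), and within those of the second 3.69 (adjusted p = 0.00723).

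Mmp10, stromelysin-2, is the close relative of Mmp3 in the cluster and is known from wound-edge epithelium. It was well above background on 0 of 5 uninjured and 4 of 5 injured wild-type arrays. Its injured values were −4.48, −5.26, −3.98, −4.63 and −1.0, of which the second was not well above background. Again replicate 5 was the highest. Set against the dimmest signals that were still well above background on the uninjured arrays, the injured mean was 1.94-fold higher, and 1.18-fold without replicate 5. These are not strict lower bounds, since the second injured value was used as measured.

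The gelatinases Mmp9 and Mmp2 both cut denatured collagen and the collagen of basement membranes. Mmp9 is known as an inducible enzyme of leukocytes and migrating epithelium, Mmp2 as a constitutive one of mesenchymal cells. The Mmp9 probe that was spotted 10 times on each array gave −1.55, −2.64, −1.55, −1.84 and −2.23 in uninjured wild-type tracheas. In injured ones it gave 0.14, −0.27, 0.65, 0.04 and 0.74, again without overlap. The difference was 2.22 (SE 0.46, 4.67-fold, adjusted p = 0.00419), and that of the second Mmp9 probe was 2.17 (SE 0.44, adjusted p = 0.00333). The Mmp9 calls lay near the threshold and could be lost with 1 array left out. Without replicate 2 of the uninjured group the adjusted p became 0.0152 and 0.0124, and without replicate 5 of the injured group 0.0122 and 0.0105. Leaving out the former also lowered the calls over all tested probes, from 1372 to 665. Leaving out replicate 4 or 5 of the uninjured or replicate 1 or 3 of the injured group took the call from the 10-spot probe alone (adjusted p = 0.0105 to 0.0111). Within the first scan day the adjusted p was 0.0189 and 0.0158. In all these fits the difference stayed between 1.98 and 2.25.

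Mmp2 did not share this. Uninjured wild-type arrays ran from 2.51 to 3.20 and injured ones from 2.35 to 3.38, and the ranges overlapped almost fully. The difference was 0.10 (95% interval −0.53 to 0.73, adjusted p = 0.872).

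Of the collagenases, which cut native fibrillar collagen, Mmp13 passed the filter and Mmp8 did not. Mmp13, known from cartilage and wound fibroblasts, gave 0.86, −0.18, −0.53, −0.24 and −0.18 without injury. With injury it gave 2.25, −0.13, 2.15, 0.18 and 2.36. Injured replicates 1, 3 and 5 lay above all uninjured ones, while replicates 2 and 4 lay among them. The difference was 1.42 (SE 0.49, 95% interval 0.39 to 2.45, adjusted p = 0.0655). With array weights, which count noisier arrays less, it was called at 1.72 (adjusted p = 0.00859), as were 10.1% of all tested probes.

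Mmp8, the collagenase stored in neutrophil granules, was well above background on 0 of 5 uninjured and 5 of 5 injured wild-type arrays. Its injured values were −3.01, −4.03, −3.47, −4.43 and −0.18. Against the same floor it was at least 3.48-fold higher after injury, and at least 2.13-fold without replicate 5. Other neutrophil markers were measured beside it. Of 11 listed genes with a probe, 8 passed the filter and 1 was called, against 3.24% of all tested probes called higher. It was the granulocyte receptor Csf3r, at 4.05 (SE 0.83, adjusted p = 0.0038). S100a8 was 3.90 higher (adjusted p = 0.0269) and Retnlg 4.19 higher (adjusted p = 0.0117), while Mpo differed by 0.29 (adjusted p = 0.478) and Cd177 by −1.05 (adjusted p = 0.0721). The granule genes Elane and Ngp were well above background on 0 of 20 arrays. The summed linear signal of the list, in units of the array's 75th percentile, was 347 to 612 in uninjured and 479 to 657 in injured wild-type tracheas. Most of it came from Ltf, whose level was 8.90 and 8.86 in these groups and which glands also secrete. Their part in the Mmp8 and Mmp9 values was not tested.

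Mmp14, a membrane-anchored collagenase, activates the proenzyme of Mmp2 at the cell surface. Its brighter probe gave 3.29, 2.88, 3.23, 3.04 and 3.28 in uninjured and 4.66, 4.20, 4.89, 4.22 and 5.12 in injured wild-type tracheas. The uninjured arrays were tight, and the injured ones began about a log2 unit above them. Mmp14 rose by 1.47 (SE 0.25, 2.78-fold, adjusted p = 0.00143). The other probe showed a like difference, 1.48 (SE 0.37), but a wider spread, and it was not called (adjusted p = 0.0131). It was called with median scaling, with array weights, with scan day in the fit, within the compared groups alone and within either scan day (adjusted p = 0.000426 to 0.00982). The brighter probe lost its call within the second scan day, which holds 2 arrays per group (1.61, adjusted p = 0.0226).

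Mmp7, matrilysin, is a small metalloproteinase of epithelia, known for acting on defensins in some of them and on cell contacts. It was well above background on 0 of 5 uninjured and 2 of 5 injured wild-type arrays (−4.18 and −4.53 on replicates 1 and 2), and no fold is given for so few. Mmp12, the macrophage metalloelastase, was well above background on 0 of 5 uninjured and 1 of 5 injured wild-type arrays. That array, replicate 5, gave −1.49, and the other four gave −4.86 to −7.02. No fold is given for it, because the injured mean lay under the floor. In a fit with no filter on dim probes, 0 of these 4 probes were called in any comparison. Of all 41174 probes that fit called 1108 for injury in wild-type, 60 for injury in Myd88KO and 0 for the difference between responses. Between genotypes it called 102 without and 95 with injury. The adjusted p of the dim members for injury in wild-type tracheas was 0.0211 for Mmp7, 0.0276 for Mmp8, 0.0529 for Mmp10 and 0.485 for Mmp12.

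In Myd88KO tracheas the injured arrays of Timp1, Mmp9, Mmp14 and Mmp2 had a wider SD than any other group (1.90, 1.32, 0.70 and 0.85), whereas Mmp3 and Mmp13 had theirs in injured wild-type tracheas (1.29 and 1.23). By limma 0 of 10 probes were called, against 0.376% of all tested probes. At an unadjusted p under 0.05 there were 5, beside 5077 of all 26063 probes. The methods' one-way test, as run here, called 0 of all 26063 probes, so its 0 for the members tells nothing about them. The study, with its own software, did report differentially expressed transcripts for this comparison. No member probe separated the groups completely, against 1.15% of all tested probes that did so upwards and 2.3% downwards. The median difference over the 10 probes was 0.92, beside −0.07 for all tested probes. Within the first scan day 4 were called (4.07% of all) and within the second 0 (0% of all, 0 of 10 members).

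**Figure D2:**
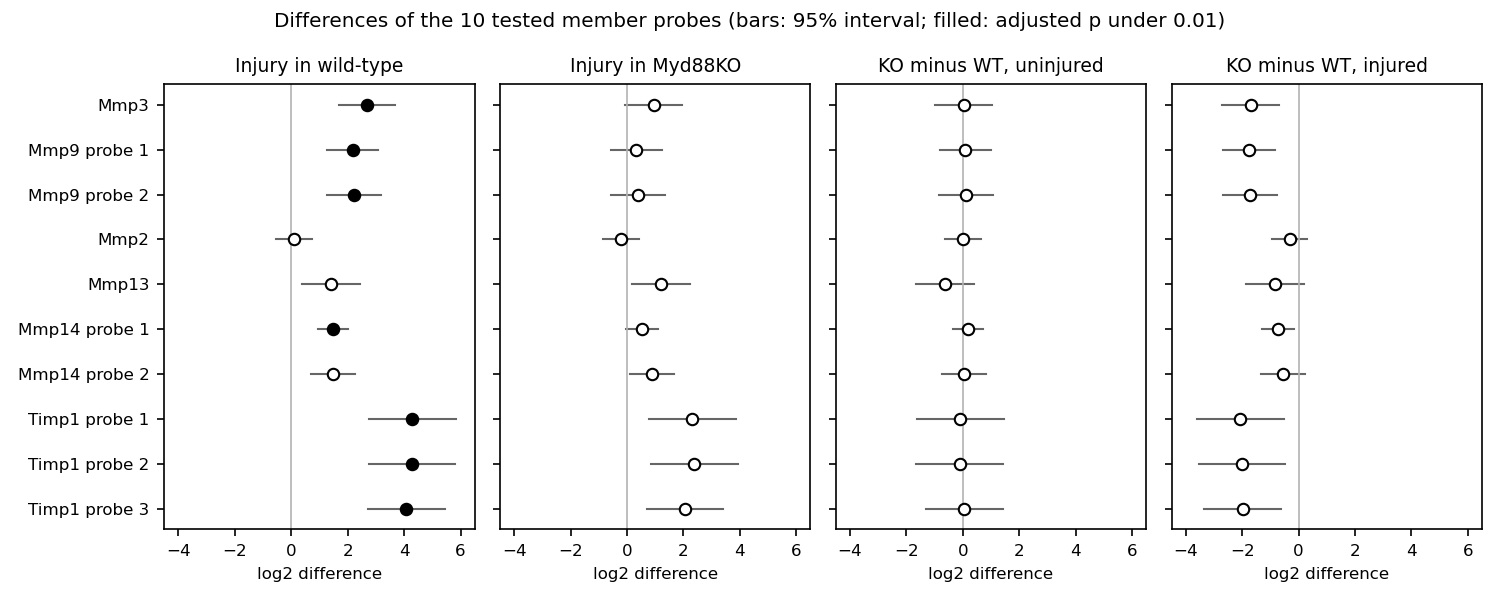
Differences of the 10 tested member probes (x axis, log2) in 4 comparisons, with 95% intervals from the fit to all 20 arrays; filled points had an adjusted p under 0.01. Filled points occur only for injury in wild-type (7 of 10), and all points for injured Myd88KO minus injured wild-type lie below 0.

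Timp1 gave 2.58, 0.90, 0.98, 1.43 and 2.08 in uninjured Myd88KO tracheas. Injured ones gave 2.65, 5.09, 3.01, 6.09 and 1.41. Replicates 2 and 4 reached the injured wild-type range, replicate 3 and, by a small margin, replicate 1 lay above the uninjured arrays, and replicate 5 lay among these. The difference was 2.06 (SE 0.65, adjusted p = 0.0865). Without replicate 5 all 3 Timp1 probes were called, the brightest at 2.62 (adjusted p = 0.00799), and so were 4.12% of all tested probes. With array weights, where 8.01% of all probes were called, Timp1 was called at 3.07 (adjusted p = 0.00128), and within the first scan day at 3.63 (adjusted p = 0.00338). Within the second it was −0.30.

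Mmp3 gave 1.08, −0.18, −0.69, 0.14 and 0.79 without and 1.11, 1.61, 0.36, 2.00 and 0.82 with injury in Myd88KO tracheas. These ranges overlapped, and the difference of 0.95 (SE 0.48) was not called (adjusted p = 0.287). Mmp9 gave −1.62, −2.01, −2.77, −1.26 and −1.57 without injury. With injury it gave −2.47, −0.07, −1.66, −0.13 and −2.95, so that replicates 2 and 4 stood above every uninjured array and replicate 5 below them. The difference was 0.39 (SE 0.46, adjusted p = 0.687).

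Mmp14 gave 3.57, 2.99, 3.21, 3.27 and 3.68 in uninjured Myd88KO tracheas. In injured ones it gave 3.83, 4.69, 4.03 and 2.99, for replicates 1, 2, 3 and 5. The spot of replicate 4 was an outlier on the array and was left out, so this group has n = 4. The difference was 0.54 (SE 0.27, adjusted p = 0.28). Its second probe, measured on all arrays, differed by 0.89 (SE 0.37, adjusted p = 0.195), and was called within the first scan day (1.61, adjusted p = 0.00168) and with array weights (1.42, adjusted p = 0.00129).

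Mmp13 differed by 1.20 (SE 0.49, adjusted p = 0.187), nearly as much as in wild-type tracheas. Its uninjured arrays gave 0.01, −0.68, −1.72, −0.52 and −0.45, and its injured ones 0.77, 1.26, −0.15, 1.22 and −0.47. Mmp2 differed by −0.22 (SE 0.30, adjusted p = 0.738). Its injured arrays fell into 2 levels, with 1.82 and 1.68 on replicates 1 and 5 and 3.18 to 3.38 on the other three. The uninjured arrays had run from 2.48 to 3.04.

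The dim members followed the same arrays. Mmp8 was well above background on replicates 2 (−2.31) and 4 (−2.76) of the injured Myd88KO group and on 0 of 5 uninjured arrays. Mmp10 was so on replicates 2 (−4.06) and 4 (−4.71), and on 1 uninjured array. Mmp7 was so on replicates 2 and 4 as well, at −3.79 and −4.74, against 0 of 5 without injury. Its uninjured replicate 3 measured −4.62, above injured replicate 4, so the signals overlapped. No fold is given for these 3 genes.

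Mmp12 behaved apart from the other members. It was well above background on 3 of 5 uninjured Myd88KO arrays (−2.63, −2.52 and −2.86 on replicates 1, 4 and 5), with −6.98 and −6.52 on the other two. No uninjured wild-type array reached background, the values running from −7.35 to −6.46. No fold is given, since 2 of the 5 brighter arrays were themselves not well above background, and in the fit with no filter its difference of 2.58 (SE 1.09) had an adjusted p of 0.985. After injury it was detected on 3 Myd88KO arrays again, replicates 2, 3 and 4.

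Without injury the genotypes did not separate on any tested member. By limma 0 of 10 probes were called, against 0.384% of all tested probes. At an unadjusted p under 0.05 there were 0, beside 1458 of all 26063 probes. The methods' one-way test called 0 of the member probes and 46 of all 26063. Timp1 differed by 0.05 (95% interval −1.31 to 1.41), Mmp3 by 0.04 (−0.97 to 1.04), Mmp9 by 0.11 (−0.86 to 1.08) and Mmp2 by 0.00 (−0.63 to 0.63). These intervals use a spread shared by all 4 groups, the injured ones included. For Timp1 the SD was 0.48 and 0.72 in uninjured wild-type and Myd88KO tracheas, and 0.79 and 1.90 in injured ones. As fitted, they are wide enough to hold a doubling for the first 3 genes. Intervals from the uninjured arrays alone are not given. Mmp13 was the furthest from 0, lower by 0.62 in Myd88KO (SE 0.49, adjusted p = 1), and it was lower on 5 of 5 slides.

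After injury all 10 tested member probes, from 6 genes, were lower in Myd88KO than in wild-type tracheas. By limma 0 were called, against 0.380% of all tested probes. At an unadjusted p under 0.05 there were 7, beside 3264 of all 26063 probes. The methods' one-way test called 0 of the member probes and 21 of all 26063. The median difference was −1.71, beside −0.03 for all tested probes. Mmp9 came closest, at −1.75 for its second probe (SE 0.44, adjusted p = 0.074) and −1.72 for the 10-spot probe (SE 0.46, adjusted p = 0.107). Mmp3 differed by −1.70 (SE 0.48, adjusted p = 0.131) and Timp1 by −1.97 (SE 0.65, adjusted p = 0.203). Mmp14 differed by −0.73 (SE 0.27, adjusted p = 0.255), Mmp13 by −0.84 (SE 0.49, adjusted p = 0.51) and Mmp2 by −0.31 (SE 0.30, adjusted p = 0.71). Of the untested members, Mmp12 was well above background on 3 injured Myd88KO arrays and 1 injured wild-type array. For Mmp8 these counts were 2 and 5, for Mmp10 2 and 4, and for Mmp7 2 and 2.

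A direct test of whether injury acted differently by genotype gave 0 calls for the members and 0 of 26063 for all probes by limma. At an unadjusted p under 0.05 there were 5 member probes, beside 2703 of all 26063. The response of Mmp9 was smaller by 1.84 in Myd88KO at its second probe (SE 0.62, adjusted p = 0.391), that of Mmp3 by 1.74 (SE 0.68, adjusted p = 0.412) and that of Timp1 by 2.02 (SE 0.92, adjusted p = 0.469). A larger response in wild-type is therefore not shown for any member by the fit to all arrays. With slide as a block the calls were 5.94%, 0.549%, 0.388%, 0.430% and 0.00384% of all tested probes in the 5 comparisons, and 7, 0, 0, 0 and 0 of the member probes. The 5 comparisons share their groups, so their values are not independent of one another.

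The injured genotypes were also compared within slides, since every slide held 1 array of each group. For Timp1 the injured Myd88KO array minus the injured wild-type array was −4.22 and −4.51 on slides 1 and 5, scanned on the second day. On slides 2, 3 and 4 it was −0.07, −2.23 and 1.15. For Mmp9 the values were −2.61 and −3.70 on slides 1 and 5, and 0.19, −2.31 and −0.17 on the others. For Mmp3 they were −2.08 and −4.08, against −0.31, −2.37 and 0.36. Slide 3 thus sided with slides 1 and 5 for these genes, although it was scanned with slides 2 and 4.

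The second scan day alone holds 2 arrays per group. Fitted within it, 7 of 10 member probes were called lower in injured Myd88KO tracheas, against 4.80% of all tested probes in either direction. These were all 3 Timp1 probes, both Mmp9 probes, Mmp3 and the second Mmp14 probe. Within the first scan day 0 were called, against 0.249%. The fits within a day were added after the data had been seen. Slides 1 and 5, which make up the second day, hold the lowest injured Myd88KO arrays of Timp1 (2.65 and 1.41). The calls of that day therefore restate these low values and are no separate support. The differences averaged within a day were −4.37 and −0.38 for Timp1, −3.15 and −0.76 for Mmp9, and −3.08 and −0.78 for Mmp3, second day before first. A fit with group by scan day, added after these values had been seen, tested the change in the injured genotype difference between days. It called 3 of 10 member probes (the dimmer 2 of Timp1 at −4.78 and −4.65, adjusted p = 0.00587 and 0.00646, and the second of Mmp14 at −2.34, adjusted p = 0.00115), against 2.83% of all tested probes. The same test of the wild-type injury response called 0 member probes and 0 of all 26063, with 1 member probe at an unadjusted p under 0.05. For the Myd88KO injury response it also called 0 member probes and 0 of all, with 9 of 10 member probes at an unadjusted p under 0.05 and all 10 smaller on the second day. The number of all probes at that unadjusted level was not counted for either response. Scan day, slide and replicate number go together here, and the animals behind them cannot be told apart from them.

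**Figure D3:**
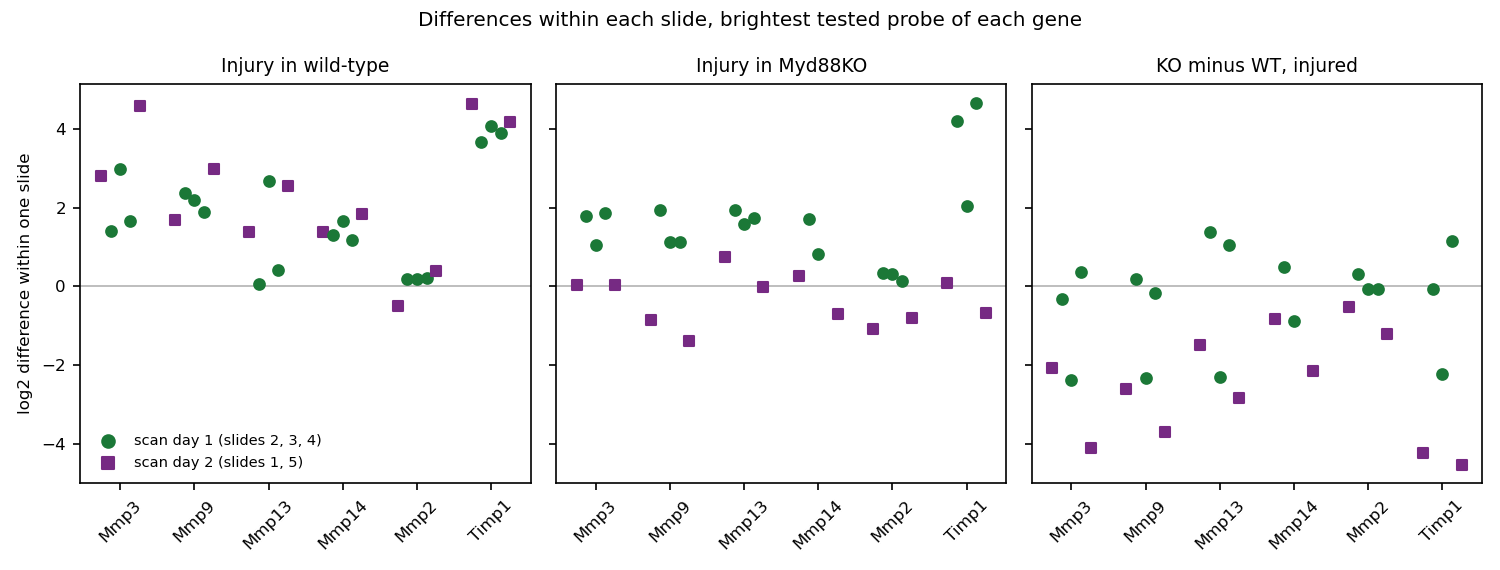
Differences between arrays of the same slide (y axis, log2) for the brightest tested probe of 6 members, as injured minus uninjured in each genotype and as injured Myd88KO minus injured wild-type; circles are the 3 slides of the first scan day and squares the 2 of the second. Wild-type Timp1 lies between 3.67 and 4.62 on all slides, while in Myd88KO its squares lie near 0 and its circles at 2.03 to 4.66.

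Summed markers of macrophages and of club cells varied over the same arrays. All 10 listed macrophage genes passed the filter, and 6 were called higher after wild-type injury, against 3.24% of all tested probes. Among them were Cd68 at 3.27 (SE 0.53, adjusted p = 0.000907) and the scavenger receptor Msr1 at 3.93 (SE 0.70, adjusted p = 0.00166). Cd68 and Msr1 kept their calls in all other settings where they were tested. Csf1r, another of the 6, was called in 17 of 34. The summed macrophage signal was 17.6 to 32.0 in uninjured and 34.1 to 89.5 in injured wild-type tracheas, and 16.7 to 23.3 in uninjured Myd88KO tracheas. On the injured Myd88KO arrays it was 19.9, 52.1, 21.8, 63.0 and 19.4 for replicates 1 to 5. The high arrays, 2 and 4, were also those where Timp1, Mmp9 and Mmp8 were highest. Summed club cell signal on these 5 arrays was 1233, 892, 791, 720 and 1628, beside 1705 to 2642 in uninjured Myd88KO and 760 to 943 in injured wild-type tracheas, with replicates 1 and 5 highest after injury. Other lists did not all follow these arrays. In the injured Myd88KO group the summed basal cell signal was highest on replicates 2 and 4 (294 and 200). The neutrophil sum was highest on replicate 5 (693), and the cartilage sum was lowest on replicate 4 (30.4). Most of the neutrophil sum again came from Ltf, at a mean of 8.86 in this group, so it does not show where other neutrophil markers were highest. Of these, Csf3r and Cxcr2 were well above background on 3 and 2 of the 5 arrays. The part of these cell markers in the member values was not tested.

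The genes whose arrays ran most like each member were found by the root mean square difference of centred values over the 20 arrays, among 17732 genes. For Timp1 they were Msr1, the kinase gene Fgr and the chemokine gene Ccl6 (0.47 to 0.51, where the median gene was at 2.01). For Mmp3 they were Hpx, Tnfsf14 and Lilra6 (0.45 to 0.51, median 1.37). For Mmp9 they included the cell cycle factor E2f1 and the collagen gene Col5a1 (0.41 and 0.42, median 1.21). For Mmp14 they were Frrs1, Samhd1 and Itih3 (0.22 to 0.27, median 0.79), and for Mmp13 they included Mrc1, the mannose receptor of macrophages (0.43, median 1.14). Mmp2 ran with Mxra8, Boc and Sema4c (0.23 to 0.25, median 0.62). Among the members, Mmp9 and Mmp14 were the closest pair (0.62) and Mmp2 and Timp1 the furthest (1.92).

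The rest of the extracellular proteolysis system was read from 5 lists of genes, each gene by its brightest probe. In wild-type injury 7 of the 41 tested listed genes were called, against 5.26% of all tested probes. At an unadjusted p under 0.05 there were 21, beside 6886 of all 26063 probes. Among the other metalloproteinases 2 of 8 tested were called, both higher, against 3.24% of all tested probes called higher. Mmp19, a secreted enzyme of basement membrane, rose by 2.74 (SE 0.44, adjusted p = 0.000822), as much as Mmp3. Mmp23 rose by 1.30 (SE 0.26, adjusted p = 0.00307), and lost its call within the second scan day (adjusted p = 0.0529). The list's median difference was 0.36.

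Of the other inhibitors, 3 fell after wild-type injury. Timp4 fell by 2.03 (SE 0.27, adjusted p = 0.000215), Timp3, the inhibitor that stays bound to matrix, fell by 0.85 (SE 0.17, adjusted p = 0.0034), and Reck, a membrane-anchored inhibitor, fell by 0.84 (SE 0.15, adjusted p = 0.00133). They were 3 of 5 tested, against 2.03% of all tested probes called lower. Timp2 differed by 0.23 (adjusted p = 0.362) and the plasma inhibitor A2m by 0.44 (adjusted p = 0.578). Timp3 was called in 26 of 33 other settings, and with median scaling it lost its call (fall of 0.75, adjusted p = 0.0131). Within a single scan day Timp3 (adjusted p = 0.0344 and 0.0547) and Reck (0.0338 and 0.0126) lost theirs in both, and Timp4 in the second (0.0181). All 3 stayed lower in each of the settings tried.

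Plasmin is a classical activator of prometalloproteinases, and genes of its system were measured as the third list. Plau, the urokinase that makes plasmin, rose by 1.51 (SE 0.33, adjusted p = 0.00515). It was the 1 gene called of 7 tested and reported, against 3.24% of all tested probes called higher. Plau was called in 23 of 33 other settings. Its call was lost, among others, within the first scan day (adjusted p = 0.0604) and with slide as a block (adjusted p = 0.0103). With another background correction it was lost at a difference of 0.74 (adjusted p = 0.0105). The urokinase receptor gene Plaur differed by 1.68 (adjusted p = 0.0165).

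Among 12 genes for matrix proteins that these enzymes cut, 1 was called, against 3.24% of all tested probes called higher. It was Spp1 (osteopontin, which Mmp3 and other members cleave), at 2.76 (SE 0.65, adjusted p = 0.00861). It was called in 15 of 34 other settings, and not with slide as a block (adjusted p = 0.0142), within either scan day (0.0311 and 0.021) or by the methods' one-way test (adjusted p = 0.0392). The median difference of the list was 0.95. Of 9 tested genes for cytokines and factors known to induce the members, 0 were called by limma, with 3 at an unadjusted p under 0.05. Il1b was the furthest from 0, at 3.84 (SE 1.07, adjusted p = 0.0228), while Il1a differed by −1.85 (SE 0.71, adjusted p = 0.0959), and Fos and Jun differed by 0.17 (adjusted p = 0.838) and −0.35 (adjusted p = 0.156).

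After injury in Myd88KO tracheas 0 of the 41 listed genes were called by limma, against 0.376% of all tested probes. At an unadjusted p under 0.05 there were 14, beside 5077 of all 26063 probes. The lowest adjusted p was 0.0121. That was Timp4, at −1.35 (SE 0.27). Reck differed by −0.62 (SE 0.15, adjusted p = 0.0275), Timp3 by −0.60 (SE 0.17, adjusted p = 0.0552) and Mmp19 by 0.99 (SE 0.44, adjusted p = 0.222). None of the 41 genes was called between the genotypes, without or with injury, against 0.384% and 0.380% of all tested probes. There 2 and 12 had an unadjusted p under 0.05, beside 1458 and 3264 of all 26063 probes. The direct test of unequal injury effects gave 0 calls and 9 such genes, beside 0 calls and 2703 such probes of all 26063.

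**Figure D4:**
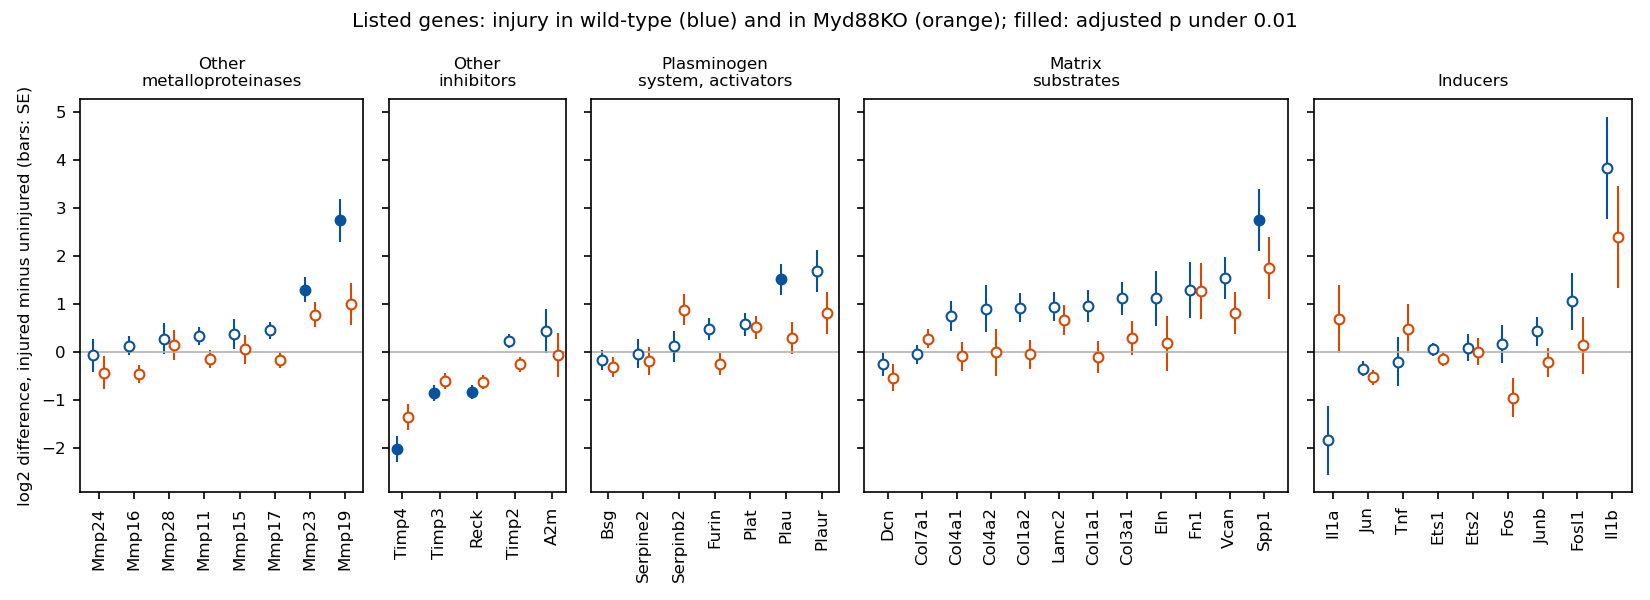
Log2 difference after injury (y axis, bars are the SE) for the 41 tested listed genes, in wild-type (blue) and Myd88KO (orange); filled points had an adjusted p under 0.01. The 3 filled points below 0 are the inhibitors Timp4, Timp3 and Reck, and the filled points above 0 run from Mmp23 at 1.30 to Spp1 at 2.76.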

How the data were processed

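Whole trachea RNA of 20 mouse samples was hybridised in 1 colour to Agilent mouse arrays. The authors deposited Feature Extraction output (version 9.5.1.1 per the file headers) with an intensity for each spot, background-subtracted by that software, and a value table of the same intensities, with table over scanner values of 0.995 to 1.005, used as an alternative. The labels call the route of polidocanol intratracheal and the methods oropharyngeal. The methods name male and female mice and the labels give no sex. Here log2 of the processed intensity was taken, the 75th percentile of each array subtracted, control spots and 1960 outlier values left out and spots of a probe averaged. limma 3.58.1 in R 4.3.3 was fitted to all 4 groups, tested first on simulated data. The array number limits the precision. Bounds used the lowest signal well above background on each array. A listed gene was read by its brightest probe; listed genes are named where called, with some others chosen after their values were seen. Positions of probes were not used, since no build is named for them. Promoters were RefSeq's, GRCm38.p6. The members and lists were chosen with earlier results of these data known. Alternatives covered scaling, background, filters, array weights, slide and scan day blocks, 2-group fits and each array left out. Fits within a scan day were added after seeing the data. One listed gene is not reported here and was left out of the list counts.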

Additional observations from a re-analysis of the deposited data

Results flagged for a closer look

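Over 56 groups of arrays, one for each member probe and group (55 of 5 arrays and 1 of 4), 2 had an array far from the rest, and chance alone marks about 1 group in 20. Mmp2 was 2.48 on replicate 5 of uninjured Myd88KO, where the nearest array was at 2.90. Mmp13 was 0.86 on replicate 1 of uninjured wild-type, where the nearest was at −0.18. Neither probe was called in the unweighted fit to all 20 arrays. The Mmp13 array was part of the wild-type injury comparison that was called with array weights (1.72, adjusted p = 0.00859).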

How the results depend on the processing

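With slide as the replicate block the counts of called member probes were 7 for injury in wild-type, 0 for injury in Myd88KO, 0 and 0 between genotypes and 0 for the difference between responses, as without it. Correlations of deviations between same-numbered arrays ran from −0.26 to 0.48 (median 0.24, 23 of 30 over 0.1), and between other arrays from −0.51 to 0.54 (median −0.08, 35 of 120 over 0.1). Same-numbered arrays shared a slide, and since 7 pairs were not over 0.1 the block was kept as an alternative. Injury in Myd88KO gave 4 called member probes with array weights and 4 within the first scan day, against 0. Injured Myd88KO against injured wild-type gave 7 within the second scan day, which holds 2 arrays per group, against 0. Leaving out each array in turn gave 5 to 8 for wild-type injury, 0 to 3 for Myd88KO injury (3 without replicate 5 of the injured group, when all calls went from 98 to 1075) and 0 to 0 for each of the others. No called difference changed sign. Of 1408 uncalled values 59 did so. The cause of these changes was not tested. With the demand of well above background on all 20 arrays the brighter Mmp14 probe was not tested. The 2-group settings do not apply to the difference between responses. Differences under about a log2 unit were often within the error at 5 arrays a group, and 4 members were too dim for a test.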
